A study of Mus musculus with 50 samples.

Results

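The comparison asks whether early-life stress moved the resting level of microglial genes, their response to lipopolysaccharide (LPS, a bacterial cell-wall component), or both. It rests on the 25 mice of postnatal day 200 (P200) among the 50 mice of the series, chosen by their group labels: 7 CTR-PBS, 7 CTR-LPS, 6 ELS-PBS and 5 ELS-LPS. All were male C57BL/6J mice. ELS litters were raised from P2 to P9 with little bedding and nesting material, which fragments maternal care, and CTR litters with the standard amount. At P200 a mouse received either phosphate-buffered saline (PBS) or LPS at 1 mg/kg into the abdomen, and 3 h later hippocampal microglia were sorted as live CD45int CD11b+ cells for polyA RNA-seq. Each library is 1 mouse. Mice with the same first number after P200 in their labels were treated as 1 nest. This is an assumption, since the labels leave that number unexplained. Litters rather than mice were assigned to CTR or ELS, and mice of 1 litter can share a group, so p-values over mice measure the spread between mice. RNA-seq of bulk sorted cells gives shares of RNA, and fewer cells of a state and less RNA per cell cannot be told apart.

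Microglia are the resident macrophages of the brain. LPS binds Toll-like receptor 4, and NF-kB and interferon regulatory factors then switch on cytokines, chemokines and, through secreted type I interferon, a second wave of antiviral genes. The same injection raises corticosterone, whose receptor switches on its own targets in microglia and restrains the inflammatory programme. Limited bedding and nesting is a widely used rodent model of early adversity, and a lasting change may lie in the resting state, in the response to a later challenge, or in both.

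These possibilities correspond to different contrasts. The baseline difference is ELS-PBS minus CTR-PBS, and the difference under LPS is ELS-LPS minus CTR-LPS. The LPS response was taken in CTR mice and in ELS mice separately. The interaction is the ELS response minus the CTR response, which equals the difference under LPS minus the baseline difference. All are log2 fold changes from 1 edgeR quasi-likelihood fit of raw counts, and an interaction of 1 means that the fold change after LPS was 2 times as large in ELS mice. A gene was called at a Benjamini-Hochberg adjusted p under 0.05 over all 16696 genes tested and an absolute log2 fold change above 1. The contrasts share mice, so their values stand side by side and none supports another. Levels of single mice are CPM, read counts scaled to a common library size after normalisation for library composition.

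The libraries held 13900212 to 42231258 counts (median 19971987). In 24 mice 16485 to 19727 genes were detected, and in P200_1.1_CTR_PBS 12854 were. P200_1.1_CTR_PBS stood apart from the other CTR-PBS mice in the first 2 principal components and in most family scores, and P200_11.2_ELS_LPS had relatively more RNA of short than of long genes. Many values that rest on either mouse, or on P200_4.1_ELS_PBS, are given with and without it, but not all. Summed CPM of 10 microglial markers was 79720 to 101900 in every group. Of 14 markers of monocytes and neutrophils, Ly6g and Retnlg were at 0 in all mice. Others went the other way: S100a8, S100a9, Ngp, Hp, Chil3 and F10 were at 0 in all ELS-PBS mice and were detected in both LPS groups. The 14 markers of monocytes and neutrophils together summed to 0.712 to 11.13 CPM in PBS mice, 2.00 to 8.46 CPM in CTR-LPS and 0.878 to 23.7 CPM in ELS-LPS, where P200_2.2_ELS_LPS (23.7 CPM), P200_17.3_ELS_LPS (16.4 CPM) and P200_20.1_ELS_LPS (11.9 CPM) were highest. Of these markers 3 passed the filter, with a median interaction of 1.52 (-0.74 to 6.44). Summed lymphocyte markers were 116.5 CPM in P200_11.2_ELS_LPS and 23.5 to 61.4 CPM in the other mice. The part of these cells in the results was not tested. Summed astrocyte markers were 302 to 503 CPM in the PBS groups and 424 to 618 CPM in the LPS groups, and their part in the LPS responses was not tested.

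No gene was called for the interaction (0 of 16696 genes, 0%). Without adjustment 980 genes (5.87%) had a p under 0.05, 490 higher (2.93%) and 490 lower (2.93%) in the ELS response, and the smallest adjusted p was 0.127. DESeq2 called 11 genes, edgeR's likelihood-ratio test 66 and limma voom with the assumed nest as a random effect 0. No gene was called between ELS and CTR under LPS either (0%), where 798 genes (4.78%) had an unadjusted p under 0.05 (2.11% higher and 2.67% lower in ELS), DESeq2 called 2 and the likelihood-ratio test 10. At baseline 26 genes were called (0.156%), 19 higher (0.114%) and 7 lower (0.0419%) in ELS-PBS (Gfap, an astrocyte marker, among the latter), and 1622 (9.71%) had an unadjusted p under 0.05 (5.50% higher, 4.21% lower). For the average of the baseline and LPS differences, 11 genes were called (0.0659%), 9 higher (0.0539%) and 2 lower (0.0120%) in ELS, and 1366 (8.18%) had an unadjusted p under 0.05 (4.41% higher, 3.77% lower). LPS itself called 1606 genes in CTR mice (9.62%), 1005 of them higher (6.02%), and 1313 in ELS mice (7.86%), 783 of them higher (4.69%). The typical standard error of the interaction was 0.553 (median over genes), against 0.375 for the baseline difference and 0.398 for the difference under LPS. An interaction of less than about 1 was therefore within the error for most genes.

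**Figure D1:**
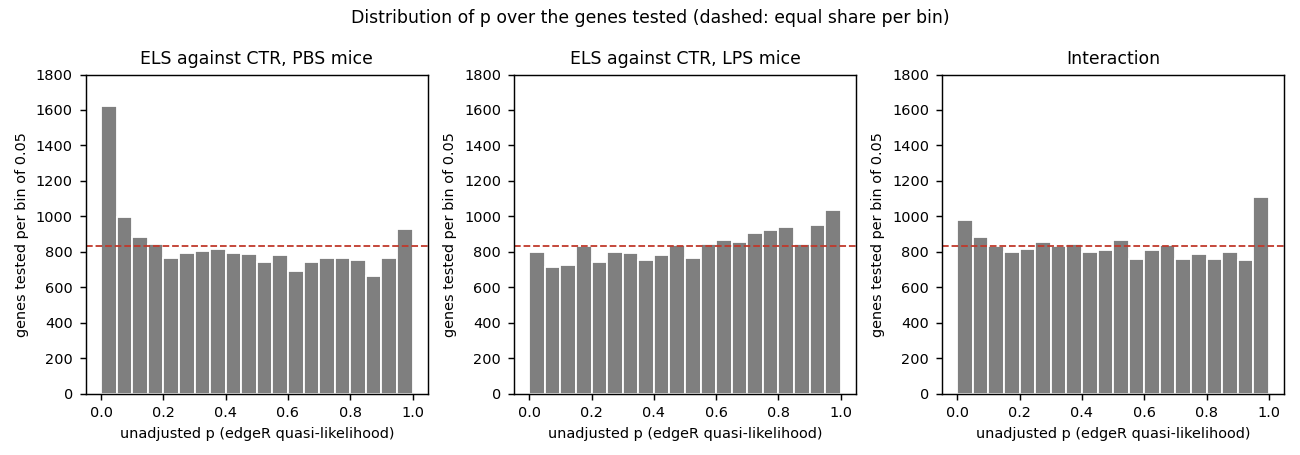
Number of genes tested per bin of 0.05 in unadjusted p, for ELS against CTR in PBS mice, in LPS mice and for the interaction; the dashed line is an equal share per bin. The PBS comparison has 1622 genes in its first bin, the LPS comparison 798 and the interaction 980.

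The 26 baseline calls depended on single mice. Leaving out 1 mouse at a time gave 1 call without P200_1.1_CTR_PBS, without P200_5.1_CTR_PBS, without P200_4.1_ELS_PBS or without P200_20.2_ELS_PBS, and 75 calls without P200_15.1_CTR_PBS. With counts of the P200 mice summed per nest number, edgeR's quasi-likelihood test called 0 genes at baseline and 0 for the averaged difference (1580 and 1366 genes had an unadjusted p under 0.05). No call of an ELS difference named here was kept in that fit. It left out the other mice of the series, and the unsummed P200 mice alone also gave fewer calls than the main fit. The loss from summing and the loss from leaving out those mice were not separated. Ddit4 stayed called in 24 of the 25 fits with 1 mouse left out, Crtap in 19 and Ripk1 in 10. In 34 genes (0.204%) every ELS-PBS mouse lay above every CTR-PBS mouse, in 20 (0.120%) below, and among LPS mice these were 9 (0.0539%) and 17 (0.102%). No gene separated ELS from CTR without overlap in the same direction in both PBS and LPS mice. Separation of PBS from LPS mice within a rearing group was not counted over all genes. For LPS against PBS 24.4% of genes in ELS mice and 26.5% in CTR mice had an unadjusted p under 0.05. Where such separation is given for a gene below, it describes that gene and is no evidence of an interaction.

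Read by family, a raised baseline median with a median near 0 under LPS was seen for glucocorticoid targets (0.61 and 0.06) and, at a smaller size, for TAM receptors and opsonins (0.34 and -0.10), STAT and SOCS proteins (0.24 and 0.03) and E3 ubiquitin ligases (0.17 and -0.01). For glucocorticoid targets it was 0.16 at baseline without P200_4.1_ELS_PBS. A lower median at baseline and a higher one under LPS was seen for interferon-stimulated, MHC, disease-associated, CC chemokine, ribosomal and oxidative phosphorylation genes. It was not particular to them. The same signs were seen for NADPH oxidase, itaconate and nitric oxide genes (-0.21 and 0.25), NRF2 and antioxidant genes (-0.11 and 0.16) and further families. Without P200_11.2_ELS_LPS the median under LPS was 0.03 for ribosomal proteins (0.14 with all mice) and -0.03 for oxidative phosphorylation genes (0.09 with all mice). Cytokine, NF-kB and AP-1 genes responded to LPS in both rearing groups with median interactions of 0.03 to 0.14. These also moved with single mice, to 0.25 for cytokines without P200_1.1_CTR_PBS, and to 0.21 for NF-kB and -0.09 for AP-1 genes without P200_11.2_ELS_LPS. No interaction of a family gene passed adjustment over all genes. These medians are descriptions of the lists and carry no test.

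**Figure D2:**
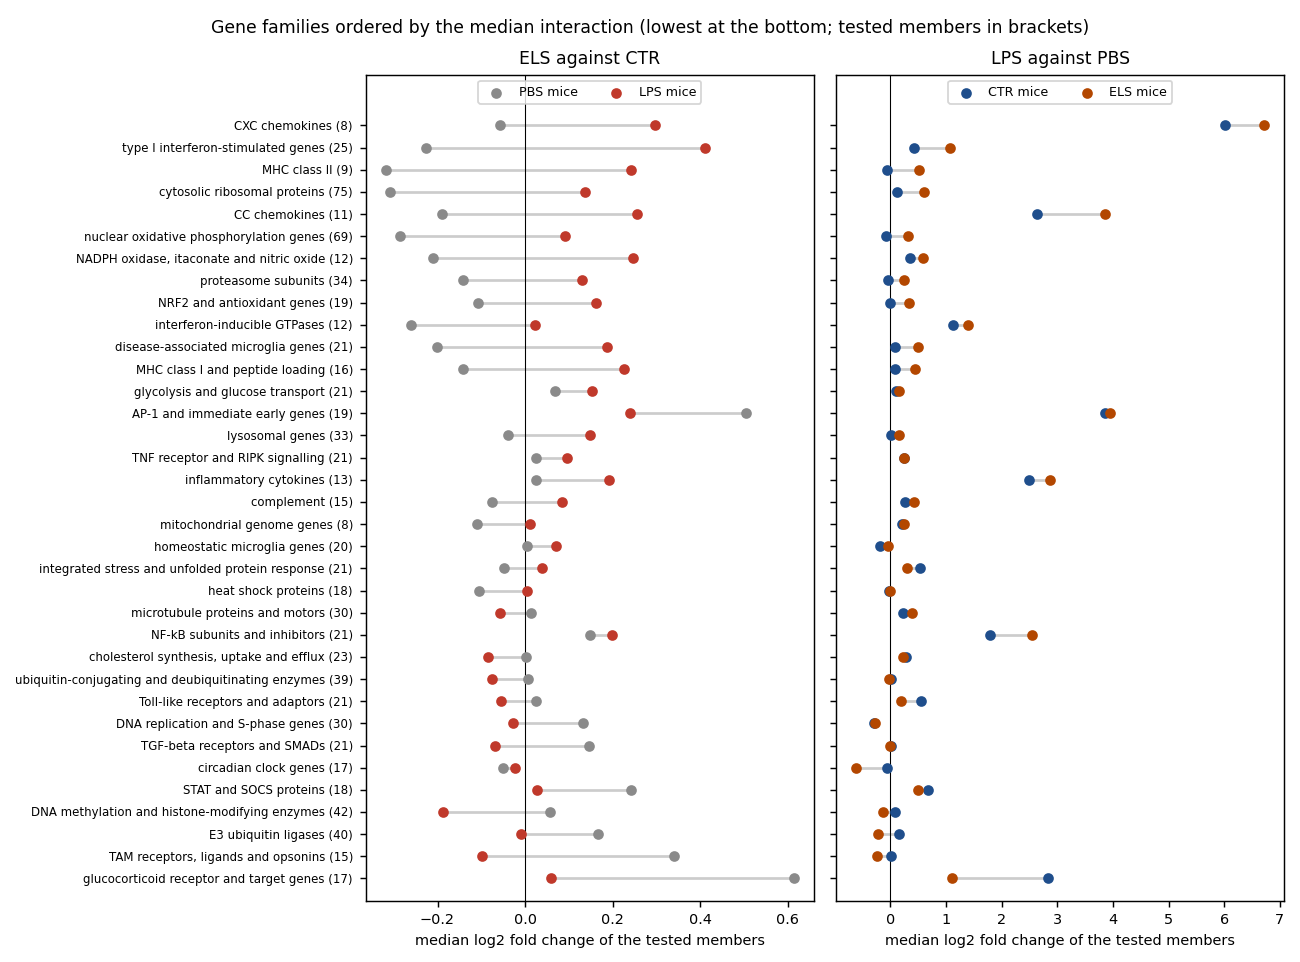
Median log2 fold change of the tested members of 35 gene families, ordered by the median interaction; left, ELS against CTR in PBS mice (grey) and LPS mice (red), right, LPS against PBS in CTR mice (blue) and ELS mice (orange). Glucocorticoid targets lie at the bottom with the highest baseline median (0.61), and interferon-stimulated genes, MHC class II and ribosomal proteins lie near the top with negative baseline and positive LPS medians.

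The families held 861 genes, of which 821 passed the expression filter. An unadjusted interaction p under 0.05 was found for 88 of them (10.7%, beside 5.87% of all genes tested), 70 with a positive and 18 with a negative estimate, and none was called. Ribosomal proteins gave 26 of the 88 and nuclear oxidative phosphorylation genes 7. Without P200_1.1_CTR_PBS and P200_11.2_ELS_LPS these fell to 0 and 1, and over all genes tested 297 were then positive and 518 negative. Without these mice the share of family genes at such a p was close to that of all genes tested. The excess of the families over all genes thus rests on these mice. The lists were drawn up with earlier results of these mice known. Across all genes tested the median was 0.01 for the baseline difference, -0.01 under LPS and -0.06 for the interaction, and family medians are read beside these.

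Among the families, glucocorticoid receptor targets had the highest baseline median and the lowest median interaction. Their 17 tested members had a median baseline difference of 0.61 and a median difference under LPS of 0.06. Corticosterone-bound receptor induces these genes. The median LPS response was 2.83 in CTR mice (13 called higher, 1 lower) and 1.11 in ELS mice (7 called higher, 1 lower), and the median interaction was -0.52. At an unadjusted p under 0.05, 8 members were higher and 1 lower at baseline, and 6 were lower and 1 higher in the interaction. P200_4.1_ELS_PBS had a mean log2 CPM over these members of 4.68, while the other ELS-PBS mice had 2.81 to 3.55 and the CTR-PBS mice 2.47 to 3.40. Without P200_4.1_ELS_PBS the median baseline difference was 0.16 with 3 members higher, the median interaction was -0.19, and 1 member was lower in the interaction. Over the 13 members with a mean log2 CPM of at least 1, the median from the same fit was 0.12 at baseline and -0.17 for the interaction.

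Ddit4, a stress-induced inhibitor of mTOR complex 1, had 5.56, 7.14 and 18.0 CPM as lowest, median and highest in CTR-PBS and 10.3, 25.4 and 63.6 CPM in CTR-LPS. Its CPM in ELS-PBS was 5.71, 7.24, 19.23, 31.3, 97.3 and 388, the last in P200_4.1_ELS_PBS. The ELS-LPS mice had 34.0, 20.7, 32.8, 35.0 and 37.6 CPM, in the order P200_11.2_ELS_LPS, P200_17.3_ELS_LPS, P200_2.2_ELS_LPS, P200_20.1_ELS_LPS and P200_4.2_ELS_LPS, which is kept for every gene. The ELS-PBS mice thus differed widely among themselves, 4 of the 6 lay above all CTR-PBS mice, and the LPS groups overlapped. The baseline difference of Ddit4 was 3.39 ± 0.58 (log2, SE; edgeR adjusted p = 0.00685) and was called. Its LPS response was 1.81 in CTR mice (adjusted p = 0.0161) and -1.51 in ELS mice (adjusted p = 0.1003), and the interaction was -3.32 ± 0.82 (unadjusted p = 0.00018, adjusted p = 0.209). Without P200_4.1_ELS_PBS the baseline difference was 1.88 (adjusted p = 0.104) and the interaction -1.81 (unadjusted p = 0.0111).

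Tsc22d3 encodes the glucocorticoid-induced leucine zipper, an anti-inflammatory protein. It had 97.5, 153 and 200 CPM (lowest, median, highest) in CTR-PBS and 307, 359 and 584 CPM in CTR-LPS. In ELS-PBS it had 118, 121, 130, 301, 339 and 716 CPM, the 716 CPM in P200_4.1_ELS_PBS. The ELS-LPS mice had 378, 308, 325, 238 and 452 CPM. Of the 6 ELS-PBS mice 3 lay above all CTR-PBS mice, and the LPS groups overlapped. The interaction was -1.10 ± 0.36 (unadjusted p = 0.00379, edgeR adjusted p = 0.414) and -0.59 (unadjusted p = 0.0551) without P200_4.1_ELS_PBS. Fkbp5, a co-chaperone that lowers the receptor's hormone affinity and was picked after its values were seen, had 27.2 to 65.9 CPM in CTR-PBS and 63.2 to 176 CPM in ELS-PBS. In both LPS groups Fkbp5 was 158 to 218 CPM. Cdkn1a, a cell-cycle inhibitor picked the same way, went in the other direction, with an interaction of 0.66 ± 0.27 (unadjusted p = 0.0161, edgeR adjusted p = 0.665).

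The palindromic glucocorticoid response element, GNACA and TGTNC separated by 3 bases, was found on either strand in 3 of 24 promoters of the list (12.5%), beside 0.35% of the 14420 promoters of all tested genes, in RefSeq promoters running from 250 bases before to 50 bases after the start (GRCm38.p6). The promoter of Map3k6, a stress kinase, is shown as the example whose gene also had an unadjusted interaction p under 0.05 (p = 0.0486), chosen after its values were seen. Its level was at most 2.07 CPM with a CTR-PBS median of 0 CPM, and the p was 0.0662 without P200_1.1_CTR_PBS and 0.0899 without P200_4.1_ELS_PBS. It lies at chr4:133240568-133240867 on the plus strand, and capitals mark the match from -181 to -169 bases relative to the start.
Map3k6: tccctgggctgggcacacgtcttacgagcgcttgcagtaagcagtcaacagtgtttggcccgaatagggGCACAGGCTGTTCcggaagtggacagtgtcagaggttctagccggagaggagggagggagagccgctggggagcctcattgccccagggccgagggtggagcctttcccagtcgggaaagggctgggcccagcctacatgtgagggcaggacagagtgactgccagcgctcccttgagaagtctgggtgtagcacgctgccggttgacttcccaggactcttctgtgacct

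**Figure D3:**
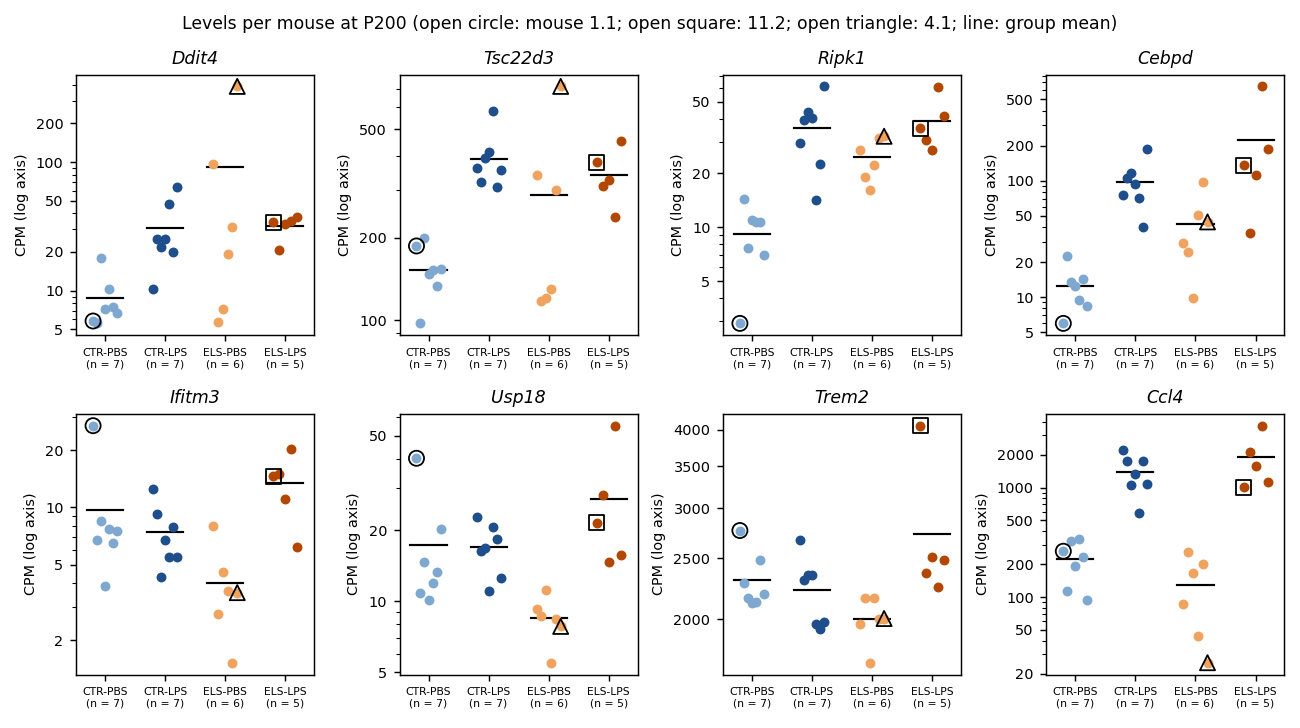
CPM per mouse on a log axis for 8 genes in the 4 groups, with the group mean as a line; P200_1.1_CTR_PBS is circled, P200_11.2_ELS_LPS has a square and P200_4.1_ELS_PBS a triangle. ELS-PBS mice spread from 5.71 to 388 CPM for Ddit4, Ripk1 is higher in every ELS-PBS than in every CTR-PBS mouse, and Ifitm3 and Usp18 run lower in ELS-PBS and higher in ELS-LPS with P200_1.1_CTR_PBS highest among the CTR-PBS mice.

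Genes of TNF receptor and RIPK signalling had no family-wide difference. The 21 tested members had a median of 0.02 at baseline, 0.10 under LPS and 0.13 for the interaction, with 1 member higher and 1 lower at an unadjusted interaction p under 0.05. Ripk1, the kinase that decides between survival and death downstream of the TNF receptor, was the member called at baseline. It had 2.90, 10.6 and 14.4 CPM in CTR-PBS (lowest, median, highest) and 16.2, 24.7 and 32.1 CPM in ELS-PBS. CTR-LPS mice had 14.2, 39.4 and 61.0 CPM and ELS-LPS mice 35.7, 30.5, 26.9, 60.4 and 42.0 CPM. The PBS groups did not overlap and the LPS groups did. The baseline difference of Ripk1 was 1.43 ± 0.33 (edgeR adjusted p = 0.0466) and 0.12 under LPS. The LPS response was 1.97 in CTR mice (adjusted p = 6.00e-06) and 0.66 in ELS mice (adjusted p = 0.240), with an interaction of -1.31 ± 0.48 (unadjusted p = 0.00815, adjusted p = 0.558). Without P200_1.1_CTR_PBS, which had the lowest level, the baseline difference was 1.27 (adjusted p = 0.113), and without P200_4.1_ELS_PBS it was 1.34 (adjusted p = 0.104), neither called.

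The TAM receptors, their ligands and other opsonins, which let microglia take up dying cells, had a median of 0.34 at baseline, -0.10 under LPS and -0.42 for the interaction over 15 tested members. Gas6, a bridging ligand of these receptors, had 52.97, 84.4 and 100.2 CPM in CTR-PBS and 88.6, 193 and 238 CPM in ELS-PBS (lowest, median, highest). In CTR-LPS it had 58.7, 98.1 and 144 CPM, and in ELS-LPS 121, 98.8, 138, 156 and 124 CPM. ELS and CTR mice overlapped in both PBS and LPS. The baseline difference of Gas6 was 1.16 ± 0.28 (edgeR adjusted p = 0.0564) and the interaction -0.74 (unadjusted p = 0.0711), so neither passed.

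E3 ubiquitin ligases mark proteins for degradation or signalling. At baseline 12 of the 40 tested members had an unadjusted p under 0.05 with ELS higher, beside 5.50% of all genes, and none was lower. The median was 0.17 at baseline, -0.01 under LPS and -0.26 for the interaction, where 3 members were lower at an unadjusted p under 0.05. Rnf166, one of these, had 3.77, 10.1 and 15.0 CPM in CTR-PBS and 17.4, 19.22 and 24.9 CPM in ELS-PBS (lowest, median, highest), without overlap. In CTR-LPS it had 7.32, 7.79 and 14.9 CPM, and in ELS-LPS 14.1, 8.51, 7.75, 16.6 and 8.25 CPM, and these overlapped. The baseline difference of Rnf166 was 1.01 ± 0.24 (edgeR adjusted p = 0.0510), with an interaction of -0.71 (unadjusted p = 0.0444). These were 0.87 (edgeR adjusted p = 0.123) and -0.57 (unadjusted p = 0.0778) without P200_1.1_CTR_PBS. Without P200_1.1_CTR_PBS the median interaction of the family was -0.16 with 1 member lower, and 9 members were higher at baseline. Ubiquitin-conjugating and deubiquitinating enzymes (39 tested) had medians of 0.01 at baseline, -0.07 under LPS and -0.05 for the interaction.

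Type I interferon-stimulated genes are the antiviral genes of the second wave. Their 25 tested members had a median of -0.23 at baseline and 0.41 under LPS, and the median interaction was 0.64, with 20 estimates positive. The median LPS response was 0.42 in CTR mice (2 called higher) and 1.08 in ELS mice (7 called higher). At an unadjusted interaction p under 0.05, 4 members were higher, namely Ifitm3, Usp18, Rtp4 and Bst2, and none lower. The median interaction was 0.68 without P200_1.1_CTR_PBS (5 members), 0.68 without P200_11.2_ELS_LPS (4 members) and 0.55 without both (5 members).

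Ifitm3 encodes a membrane protein that blocks virus entry. Its CPM was 3.86, 7.52 and 27.0 in CTR-PBS (lowest, median, highest), the 27.0 in P200_1.1_CTR_PBS, and 4.32, 6.78 and 12.5 in CTR-LPS. In ELS-PBS it was 1.52, 3.60 and 8.01, and in the ELS-LPS mice 14.6, 14.9, 11.07, 20.3 and 6.20. ELS mice were thus on the low side of CTR mice after PBS and on the high side after LPS, with overlap in both. The LPS response was -0.39 in CTR mice (edgeR adjusted p = 0.567) and 1.74 in ELS mice (adjusted p = 0.00294), and the latter was called. The interaction of Ifitm3 was 2.14 ± 0.56 (unadjusted p = 0.000407, adjusted p = 0.252), 1.63 without P200_1.1_CTR_PBS and 1.59 without P200_1.1_CTR_PBS and P200_11.2_ELS_LPS. Ifitm3 has close paralogues, so its uniquely assigned counts may be incomplete.

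Usp18, the protease that removes ISG15 from proteins and limits interferon signalling, had 10.1, 13.3 and 40.2 CPM in CTR-PBS (lowest, median, highest) and 11.07, 16.8 and 22.8 CPM in CTR-LPS. In ELS-PBS it had 5.499, 8.53 and 11.16 CPM, and in ELS-LPS 21.5, 28.0, 14.7, 55 and 15.7 CPM. The highest CTR-PBS value was again P200_1.1_CTR_PBS, and the ELS-PBS and ELS-LPS mice did not overlap. The LPS response of Usp18 was -0.04 in CTR mice and 1.67 in ELS mice (edgeR adjusted p = 0.00255), with an interaction of 1.71 ± 0.53 (unadjusted p = 0.00233, adjusted p = 0.384). Without P200_1.1_CTR_PBS this interaction was 1.35 (unadjusted p = 0.00953, edgeR adjusted p = 0.669). Rtp4, an interferon-induced chaperone of receptors, and Bst2, the tether that holds budding viruses, were picked after their values were seen. Rtp4 had an interaction of 1.25 ± 0.39 (unadjusted p = 0.00268, edgeR adjusted p = 0.391). Bst2 had 0.64 ± 0.23 (unadjusted p = 0.00836, edgeR adjusted p = 0.567).

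The core of the interferon-stimulated response element, a pair of GAAA separated by 2 bases on either strand, was present in 12 of 21 promoters of these genes (57.14%) and in 3 of 15 promoters of the MHC class I list (20.0%), beside 3.07% of the promoters of all tested genes. Promoters of Ifitm3, Bst2 and B2m are shown because they hold the element and their genes had an unadjusted interaction p under 0.05. Capitals mark the matches, which lie from 3 to 12 and from 20 to 29 in Ifitm3, from -130 to -121 and overlapping from -124 to -115 in Bst2, and from -139 to -130 in B2m, counted from the start. The windows are chr7:141010695-141010994 on the minus strand for Ifitm3, chr8:71537423-71537722 on the minus strand for Bst2 and chr2:122147437-122147736 on the plus strand for B2m (RefSeq, GRCm38.p6, an older build than the GRCm39 used for the counts).
Ifitm3: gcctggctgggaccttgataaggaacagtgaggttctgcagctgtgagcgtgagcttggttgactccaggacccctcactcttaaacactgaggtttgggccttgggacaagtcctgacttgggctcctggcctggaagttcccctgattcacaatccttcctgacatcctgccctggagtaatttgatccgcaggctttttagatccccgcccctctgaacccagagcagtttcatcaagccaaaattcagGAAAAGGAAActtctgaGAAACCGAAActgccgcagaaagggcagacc
Bst2: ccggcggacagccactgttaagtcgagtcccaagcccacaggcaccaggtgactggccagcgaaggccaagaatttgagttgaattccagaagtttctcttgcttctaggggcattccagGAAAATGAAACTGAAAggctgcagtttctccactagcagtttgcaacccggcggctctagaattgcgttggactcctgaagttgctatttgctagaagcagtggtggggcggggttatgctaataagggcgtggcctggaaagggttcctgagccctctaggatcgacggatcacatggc
B2m: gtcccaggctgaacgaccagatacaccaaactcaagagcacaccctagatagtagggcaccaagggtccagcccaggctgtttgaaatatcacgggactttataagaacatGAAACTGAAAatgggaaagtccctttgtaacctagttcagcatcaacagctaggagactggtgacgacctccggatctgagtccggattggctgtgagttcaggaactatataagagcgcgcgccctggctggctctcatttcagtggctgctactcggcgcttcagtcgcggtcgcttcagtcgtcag

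The interferon-inducible GTPases, which attack the vacuoles of intracellular microbes, held the same element in 8 of 9 promoters (88.89%). Their median was -0.26 at baseline, 0.02 under LPS and 0.22 for the interaction over 12 tested members, and none had an unadjusted interaction p under 0.05. LPS called 5 of them higher in CTR mice and 5 in ELS mice.

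MHC class I genes present peptides to CD8 T cells, and MHC class II genes to CD4 T cells. The median interaction was 0.21 over 16 class I members (3 higher at an unadjusted p under 0.05, none lower) and 0.57 over 9 class II members (4 higher, none lower). B2m, the light chain shared by class I molecules, had 2187, 2489 and 2940 CPM in CTR-PBS and 1760, 1946 and 2260 CPM in ELS-PBS (lowest, median, highest). In CTR-LPS it had 2152, 2653 and 3469 CPM, and in ELS-LPS 3660, 3340, 2414, 3292 and 2724 CPM. All ELS-LPS mice lay above all ELS-PBS mice, while the CTR groups overlapped. The interaction of B2m was 0.54 ± 0.19 (unadjusted p = 0.00746, edgeR adjusted p = 0.546) and 0.43 without P200_1.1_CTR_PBS and P200_11.2_ELS_LPS. The class I count fell from 3 to 1 without P200_1.1_CTR_PBS, with or without P200_11.2_ELS_LPS. The class II count fell from 4 to 2 without P200_1.1_CTR_PBS, to 1 without P200_11.2_ELS_LPS and to 0 without both, where its median interaction was 0.27. H2-Ab1, a class II chain, had 60.3 CPM in P200_1.1_CTR_PBS and 9.98 to 24.5 CPM in the other CTR mice, and its interaction was 0.84 with all mice and 0.26 without both.

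Disease-associated microglia genes are those raised around amyloid plaques and dying cells. The 21 tested members had a median of -0.20 at baseline, 0.19 under LPS and 0.22 for the interaction. Of these 6 had an unadjusted interaction p under 0.05, all positive (Trem2, Tyrobp, Clec7a, Ctsl, Igf1 and Fabp5). Without P200_1.1_CTR_PBS and P200_11.2_ELS_LPS 4 members had such a p, counted over the whole list rather than over these 6. Trem2, the lipid-sensing receptor upstream of this state, had 2121, 2196 and 2766 CPM in CTR-PBS and 1930, 2309 and 2667 CPM in CTR-LPS (lowest, median, highest). In ELS-PBS it had 1706, 2005 and 2164 CPM, and in ELS-LPS 4058, 2372, 2513, 2248 and 2482 CPM. The 4058 CPM was P200_11.2_ELS_LPS, the mouse richest in short genes, and every ELS-LPS mouse lay above every ELS-PBS mouse. The interaction of Trem2 was 0.50 ± 0.16 (unadjusted p = 0.00241, edgeR adjusted p = 0.384), 0.32 without P200_11.2_ELS_LPS and 0.27 (unadjusted p = 0.0587) without both mice.

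Clec7a, the beta-glucan receptor dectin-1, had 11.8, 16.6 and 26.0 CPM in CTR-PBS and 7.72, 12.3 and 15.0 CPM in CTR-LPS (lowest, median, highest). In ELS-PBS it had 8.88, 9.44 and 13.2 CPM and in ELS-LPS 15.0, 13.5, 6.42, 18.0 and 20.4 CPM. CTR mice were thus on the lower side after LPS and most ELS mice on the higher side, with overlap in both. The interaction of Clec7a was 1.2 ± 0.39 (unadjusted p = 0.00301, edgeR adjusted p = 0.398) and 1.09 without P200_1.1_CTR_PBS and P200_11.2_ELS_LPS. Ctsl, a lysosomal cathepsin, had an interaction of 0.51 ± 0.17 (unadjusted p = 0.00435, edgeR adjusted p = 0.445). Igf1 stayed at or below 0.74 CPM in every mouse, too low for its fold changes to be read. Homeostatic microglia genes (20 tested) had a median interaction of 0.06, and Sall1, a transcription factor that keeps microglial identity, fell after LPS by 1.73 in CTR mice and by 2.01 in ELS mice on the log2 scale (edgeR adjusted p = 1.17e-12 and 1.80e-12).

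CC chemokines recruit monocytes and other leukocytes and had among the largest LPS responses, with medians of 2.64 in CTR mice and 3.87 in ELS mice and 8 of 11 members called higher in each. Their median interaction was 0.40 and 2 members, Ccl3 and Ccl4, had an unadjusted p under 0.05. Ccl4 had 93.4, 233 and 339 CPM in CTR-PBS and 583, 1318 and 2192 CPM in CTR-LPS (lowest, median, highest). ELS-PBS mice had 25.1, 126 and 258 CPM, and ELS-LPS mice 1003, 2105, 1575, 3672 and 1119 CPM. The PBS and LPS mice were apart in both rearing groups, and ELS and CTR overlapped in both treatments. The interaction of Ccl4 was 1.22 ± 0.50 (unadjusted p = 0.0168, edgeR adjusted p = 0.676) and 1.34 without P200_1.1_CTR_PBS and P200_11.2_ELS_LPS, while without P200_4.1_ELS_PBS, its lowest mouse, it was 1.01. Ccl3 had an interaction of 1.36 ± 0.58 (unadjusted p = 0.0225, edgeR adjusted p = 0.722). Without P200_20.1_ELS_LPS it was 0.71 for Ccl3 and 0.84 for Ccl4. The ELS-LPS mice with the highest summed monocyte and neutrophil markers (P200_2.2_ELS_LPS, P200_17.3_ELS_LPS and P200_20.1_ELS_LPS) were also the highest for Ccl4, Cxcl10, Il1b and Acod1, genes picked after their values were seen. Of these mice P200_20.1_ELS_LPS was the lowest for the markers and the highest for Ccl4, Cxcl10 and Il1b. For Nfkbia P200_11.2_ELS_LPS lay above P200_17.3_ELS_LPS and P200_2.2_ELS_LPS. A part of monocytes and neutrophils in these levels was not tested.

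CXC chemokines, which attract neutrophils and T cells, had median LPS responses of 6.01 and 6.71 in CTR and ELS mice and a median interaction of 0.80 over 8 members, the highest of the families. Only 2 of the 8 had a mean log2 CPM of at least 1. Cxcl10, the interferon-induced member, had 0 to 6.07 CPM in CTR-PBS and 0 to 3.30 CPM in ELS-PBS. After LPS it had 158, 453 and 784 CPM in CTR mice (lowest, median, highest) and 295, 802, 504, 943 and 207 CPM in ELS mice, with overlap. Its interaction was 1.3 ± 0.88 (unadjusted p = 0.147, edgeR adjusted p = 0.926), from 0.57 without P200_5.2_CTR_PBS to 2.35 without P200_17.1_ELS_PBS.

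The inflammatory cytokines responded strongly in both rearing groups. Of 13 tested members 9 were called higher after LPS in CTR mice and 9 in ELS mice, with median responses of 2.49 and 2.86. None had an unadjusted interaction p under 0.05, and the median interaction was 0.08. Il1b, the inflammasome-processed cytokine, had 66.4, 392.1 and 668 CPM in CTR-LPS (lowest, median, highest) and 206, 659, 474, 1081 and 253 CPM in ELS-LPS, and at most 4.61 CPM in any PBS mouse. Its LPS response was 7.80 in CTR mice and 8.70 in ELS mice, with an interaction of 0.90 ± 0.85 (unadjusted p = 0.291, edgeR adjusted p = 0.966). The interaction of Il1b was 0.46 without P200_5.1_CTR_PBS, 0.48 without P200_20.1_ELS_LPS and 1.41 without P200_17.1_ELS_PBS. Tnfsf9, the 4-1BB ligand, had the smallest interaction p of the list (1.17 ± 0.62, unadjusted p = 0.0656, edgeR adjusted p = 0.879), and it was 0.41 without P200_20.1_ELS_LPS.

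NF-kB subunits and inhibitors had 14 of 21 members called higher after LPS in CTR mice and 14 in ELS mice, a median interaction of 0.03 and no member at an unadjusted p under 0.05. Nfkbia, the inhibitor induced by NF-kB itself, had 104, 125 and 195 CPM in CTR-PBS and 1170, 1712 and 2152 CPM in CTR-LPS (lowest, median, highest). ELS-PBS mice had 86.1, 107 and 224 CPM and ELS-LPS mice 2603, 2108, 1996, 2698 and 1174 CPM. PBS and LPS mice were far apart, and rearing groups overlapped. The interaction of Nfkbia was 0.51 ± 0.26 (unadjusted p = 0.0546, edgeR adjusted p = 0.857), and 0.76 without P200_4.1_ELS_PBS (unadjusted p = 0.00264, edgeR adjusted p = 0.441). AP-1 and immediate early genes had 16 of 19 members called higher in CTR mice and 15 in ELS mice, with a median interaction of 0.14 and a median of 0.51 at baseline and 0.24 under LPS. Over the 14 with a mean log2 CPM of at least 1 the median was -0.05 at baseline and 0.18 for the interaction, and over all 19 the median interaction was -0.09 without P200_11.2_ELS_LPS. Toll-like receptors and adaptors had a median interaction of -0.08 over 21 members, and Tlr2, the receptor of bacterial lipopeptides, responded by 2.99 in CTR and 3.69 in ELS mice with an interaction of 0.69 ± 0.36 (unadjusted p = 0.0605, edgeR adjusted p = 0.872), which was 0.29 without P200_20.1_ELS_LPS. STAT and SOCS proteins had 8 of 18 members called higher in CTR mice and 5 in ELS mice, with a median interaction of -0.23 and no member at an unadjusted p under 0.05.

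Acod1, which makes itaconate, an antimicrobial metabolite, was at 0 CPM in all 6 ELS-PBS mice and at 0 to 2.70 CPM in CTR-PBS, the 2.70 in P200_1.1_CTR_PBS. CTR-LPS mice had 0, 1.26 and 4.22 CPM (lowest, median, highest), and ELS-LPS mice 0.185, 7.19, 3.39, 6.43 and 0 CPM. The LPS groups overlapped, and with a group at 0 no fold change is given. Cybb, the catalytic subunit of the NADPH oxidase, had 17.9 CPM in P200_1.1_CTR_PBS and at most 11.3 CPM in the other CTR mice. Its interaction was 1.93 ± 0.88 with all mice (unadjusted p = 0.0320, edgeR adjusted p = 0.784) and 1.04 (unadjusted p = 0.198) without P200_1.1_CTR_PBS and P200_11.2_ELS_LPS.

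Cytosolic ribosomal proteins make up the translation machinery, and they had the most members at an unadjusted interaction p under 0.05, 26 of 75, all positive. The median was -0.31 at baseline (34 members lower at an unadjusted p under 0.05, none higher), 0.14 under LPS and 0.45 for the interaction. The count of 26 fell to 2 without P200_1.1_CTR_PBS, to 5 without P200_11.2_ELS_LPS and to 0 without both, where the median interaction was 0.21. Nuclear genes of oxidative phosphorylation followed the same course, with 7 of 69 members positive at an unadjusted p under 0.05 and a median of 0.36, and with 1 member and a median of 0.10 without both mice. Rpl4, a large-subunit protein, had 984 CPM in P200_11.2_ELS_LPS and 587 to 736 CPM in the other ELS-LPS mice. Its interaction was 0.44 ± 0.17 (unadjusted p = 0.0148, edgeR adjusted p = 0.652) and 0.29 (unadjusted p = 0.104) without both. Cox8a, a subunit of cytochrome c oxidase, kept an interaction of 0.40 (unadjusted p = 0.0388) without both mice, from 0.54 ± 0.19 with all (edgeR adjusted p = 0.537). Genes of the mitochondrial genome had a median interaction of 0.07 over 8 members and none at an unadjusted p under 0.05. Ribosomal protein genes have many pseudogene copies, so their counts of unique reads may be incomplete.

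These families consist of short genes, and transcript length moved with the interaction over all genes. Among 10937 genes with a mean log2 CPM of at least 1 and a known length, the median interaction was 0.17 in the 2735 shortest (median 1286 bases), 0.01 and -0.11 in the next 2 groups of 2734 by length and -0.19 in the 2734 longest (6401 bases). Of the shortest genes 6.216% had an unadjusted p under 0.05 with a positive estimate, of the longest 0.805%. The shortest minus the longest genes per mouse, as the deviation of log2 CPM from the mean of all mice, was 0.804 in P200_11.2_ELS_LPS, 0.447 in P200_1.1_CTR_PBS and -0.270 to 0.164 in the other 23 mice. After removal of a length trend in each mouse, the median interaction of ribosomal proteins was 0.31 and without P200_1.1_CTR_PBS 0.20. Whether the length measure reflects RNA quality or the cells was not tested.

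**Figure D4:**
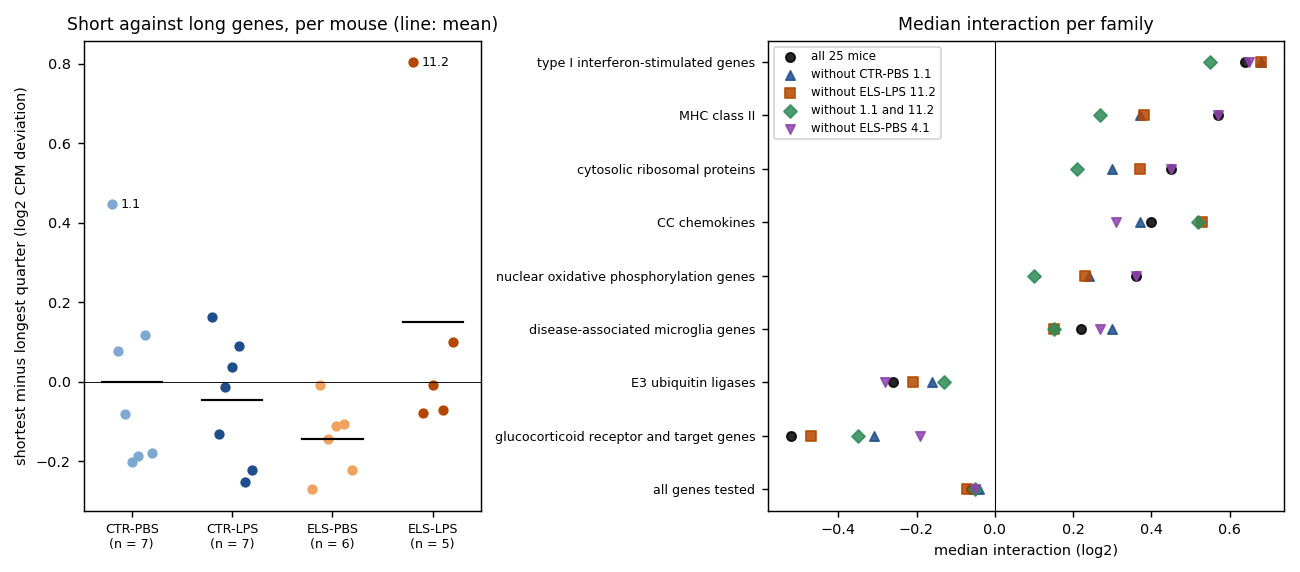
Left, the 2735 shortest minus the 2734 longest genes per mouse (deviation of log2 CPM) with group means as lines; right, median interaction of 8 families and of all genes with all 25 mice and without named mice. P200_11.2_ELS_LPS is at 0.804 and P200_1.1_CTR_PBS at 0.447, the medians of ribosomal proteins and MHC class II shrink without them, that of interferon-stimulated genes stays at 0.55 or above, and that of glucocorticoid targets goes from -0.52 to -0.19 without P200_4.1_ELS_PBS.

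The average of the baseline and LPS differences was called in 11 genes, and such a call does not test whether the 2 differences are alike. Cebpd, a transcription factor of acute inflammation, had 5.95, 12.4 and 22.6 CPM in CTR-PBS and 9.77, 36.7 and 97.3 CPM in ELS-PBS (lowest, median, highest). In CTR-LPS it had 39.7, 92.8 and 187 CPM, and in ELS-LPS 136, 35.7, 111, 646 and 186 CPM. The groups overlapped in both treatments, and P200_20.1_ELS_LPS was far above the other ELS-LPS mice. The averaged difference of Cebpd was 1.49 ± 0.33 (edgeR adjusted p = 0.0452), made of 1.79 at baseline and 1.19 under LPS, and the interaction was -0.60 ± 0.66 (unadjusted p = 0.365). It stayed called in 7 of the 25 fits with 1 mouse left out.

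Crtap, an endoplasmic reticulum protein of collagen maturation, had 0.66, 2.38 and 5.49 CPM in CTR-PBS and 2.54, 10.0 and 32.2 CPM in ELS-PBS (lowest, median, highest). In CTR-LPS it had 2.55, 3.66 and 5.01 CPM, and in ELS-LPS 6.00, 5.33, 3.17, 12.9 and 7.31 CPM. Of the 5 ELS-LPS mice 4 lay above all CTR-LPS mice. The averaged difference of Crtap was 1.62 ± 0.32 (edgeR adjusted p = 0.0319), called in 18 of the 25 fits with 1 mouse left out, and the baseline difference was 2.31 ± 0.45 (adjusted p = 0.0307). Under LPS the difference of Crtap was 0.93, and its interaction was -1.39 (unadjusted p = 0.0341). Plbd2, a lysosomal hydrolase, had an averaged difference of 1.33 ± 0.28 (edgeR adjusted p = 0.0356) and Mtarc2, a mitochondrial reductase, of 1.02 ± 0.22 (edgeR adjusted p = 0.0431). Both missed the threshold without P200_1.1_CTR_PBS (edgeR adjusted p = 0.0734 for Plbd2 and 0.0741 for Mtarc2). Prpsap1, a regulator of nucleotide precursor synthesis, had 21.2, 41.2 and 64.8 CPM in CTR-PBS and 62.4, 88.8 and 109 CPM in ELS-PBS, with a baseline difference of 1.14 ± 0.23 (edgeR adjusted p = 0.0348) and an interaction of -0.70 (unadjusted p = 0.0395). Without P200_1.1_CTR_PBS the baseline difference of Prpsap1 was 1.07 (edgeR adjusted p = 0.0868) and not called, and its interaction was -0.63 (unadjusted p = 0.0648).

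Among genes with a mean log2 CPM of at least 1, the smallest interaction p was that of Pyurf, which encodes a mitochondrial chaperone of methyltransferases. It had 3.30, 3.66 and 10.1 CPM in CTR-PBS, the 10.1 in P200_1.1_CTR_PBS, and 2.30, 2.93 and 4.36 CPM in CTR-LPS (lowest, median, highest). ELS-PBS mice had 1.19, 1.90 and 3.74 CPM, and ELS-LPS mice 4.95, 4.83, 4.13, 4.77 and 6.38 CPM. The ELS-PBS and ELS-LPS mice did not overlap, while the CTR groups did. Pyurf was picked by its interaction p, so this pattern adds no support. The interaction of Pyurf was 1.80 ± 0.40 (unadjusted p = 4.65e-05, edgeR adjusted p = 0.127) and 1.5 without P200_1.1_CTR_PBS and P200_11.2_ELS_LPS.

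Adora3, the adenosine A3 receptor, had 244, 269 and 356 CPM in CTR-PBS and 238, 329 and 386 CPM in CTR-LPS (lowest, median, highest). ELS-PBS mice had 178, 219 and 268 CPM, and ELS-LPS mice 316, 453, 348, 541 and 282 CPM. Here too the ELS groups did not overlap. The interaction of Adora3 was 0.60 ± 0.17 (unadjusted p = 0.00081, edgeR adjusted p = 0.281), and it was 0.60 without P200_1.1_CTR_PBS and P200_11.2_ELS_LPS. Rab20, a GTPase of phagosome maturation, rose in both rearing groups, by 2.69 in CTR and 3.44 in ELS mice (edgeR adjusted p = 1.07e-19 and 1.75e-21), with an interaction of 0.75 ± 0.22 (unadjusted p = 0.00125, adjusted p = 0.308). Zfp30, a zinc-finger repressor, fell in both, by 2.39 in CTR and by 1.08 in ELS mice (edgeR adjusted p = 2.76e-10 and 0.00619), with an interaction of 1.31 ± 0.37 (unadjusted p = 0.000962, adjusted p = 0.293).

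Among negative estimates, Ercc6l2, a DNA repair helicase, had 0.51, 5.18 and 7.71 CPM in CTR-PBS and 7.39, 9.11 and 17.25 CPM in ELS-PBS (lowest, median, highest). In CTR-LPS it had 3.37, 5.40 and 6.47 CPM, and in ELS-LPS 2.66, 4.72, 1.70, 5.49 and 1.29 CPM. ELS-PBS mice were thus high, ELS-LPS mice low, and no ELS-LPS mouse reached an ELS-PBS mouse. The interaction of Ercc6l2 was -1.80 ± 0.49 (unadjusted p = 0.000526, edgeR adjusted p = 0.281) and -1.55 without P200_1.1_CTR_PBS and P200_11.2_ELS_LPS. Dock8, a guanine exchange factor of leukocyte migration, fell by 1.29 in ELS mice (edgeR adjusted p = 3.21e-06) and had -0.47 in CTR mice (adjusted p = 0.0571), with an interaction of -0.82 ± 0.26 (unadjusted p = 0.00316, adjusted p = 0.401). Lifr, a receptor of the interleukin-6 family, had a response of 0.72 in CTR mice (edgeR adjusted p = 0.00156) and -0.08 in ELS mice (adjusted p = 0.860), with an interaction of -0.80 ± 0.26 (unadjusted p = 0.00299, adjusted p = 0.398).

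The remaining families had median interactions between -0.24 and 0.27 and 0 to 4 members at an unadjusted interaction p under 0.05. Complement had a median of 0.08 over 15 members, with C1qa, a subunit of the initiating complex C1q, at 0.52 ± 0.28 (unadjusted p = 0.0694, edgeR adjusted p = 0.880). Proteasome subunits had 0.27 over 34 members, none past an unadjusted p of 0.05, and 0.08 without P200_1.1_CTR_PBS and P200_11.2_ELS_LPS. Heat shock proteins had 0.06, the unfolded protein response 0.06, glycolysis 0.16, cholesterol genes 0.01, lysosomal genes 0.13 and NRF2 and antioxidant genes 0.24. DNA replication genes had -0.11, TGF-beta receptors and SMADs -0.11, microtubule proteins 0.06, circadian genes -0.17 and DNA methylation and histone-modifying enzymes -0.24. Hdac5, a class II histone deacetylase, had the smallest p of the last list, with 1.68, 12.2 and 17.5 CPM in CTR-PBS and 11.6, 27.8 and 59.5 CPM in ELS-PBS (lowest, median, highest). In CTR-LPS Hdac5 had 4.86, 10.4 and 46.2 CPM, and in ELS-LPS 14.2, 8.68, 21.3, 20.4 and 6.90 CPM, with overlap in both treatments. Its interaction was -1.91 ± 0.76 (unadjusted p = 0.0153, edgeR adjusted p = 0.657).

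The study had named genes for a response in 1 rearing group. These were chosen on the same mice, so their direction is no independent evidence. The 12 tested genes named for a rise after LPS in ELS mice alone had a median response of 4.25 in ELS and 0.91 in CTR mice, and a median interaction of 2.65. The 12 named for a rise in CTR mice alone had 5.15 in CTR and 2.00 in ELS mice and a median interaction of -3.30. Both lists were near the floor. Mean log2 CPM of the ELS list was -0.81 in CTR-PBS and -1.08 in ELS-PBS. That of the CTR list was -3.10 in CTR-PBS, -0.55 in CTR-LPS, -2.51 in ELS-PBS and -0.97 in ELS-LPS. Their large fold changes therefore rest on few counts. The 11 named for higher levels in ELS-PBS had a median difference of 2.09 at baseline and 0.50 under LPS. None of these genes was called for the interaction.

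On principal components the rearing groups did not part in a stable way. Mice sharing the first number of their label were averaged, giving 5 CTR and 5 ELS values for the LPS response (LPS minus PBS) and for the PBS level. Of the variance 25.1% lay on the first component, where the LPS response was 123 ± 85.5 (SD, n = 5) in CTR and 88.2 ± 26.2 (SD, n = 5) in ELS (exact two-sided permutation p = 0.579). The PBS level was -73.9 ± 81.4 in CTR and -33.2 ± 9.50 in ELS (SD, n = 5 each; exact permutation p = 0.222). Components recomputed without P200_1.1_CTR_PBS are other axes, with 4 CTR and 5 ELS values. On the first of them (27.7% of the variance) the differences had the other sign, 11.8 for the response and -1.97 for the level (exact permutation p = 0.444 and 0.540). On the second component of all mice (18.5%) the LPS response was 58.5 larger in ELS (exact permutation p = 0.0159) and the PBS level lower (a difference of -54.25, exact permutation p = 0.0238). On the second component recomputed without P200_1.1_CTR_PBS (6.73%) the differences were -2.84 (exact permutation p = 0.984) and -26.8 (exact permutation p = 0.190). Being on another axis, they cannot show whether the difference on the original component persists.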

How the data were processed

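Hippocampal microglia of 50 mice were sequenced, and the 25 P200 mice entered the comparisons. The deposited values are raw counts per gene and mouse, made by the authors with bcl2fastq 2.20, cutadapt 2.10, STAR at default settings and HTSeq 0.11.0 (unique reads in exons) on GRCm39. The annotation release and strand setting are not given in the sources used here, so overlapping and antisense genes cannot be told apart. Groups were taken from the labels, and so was the assumed nest number. Total counts per mouse set the precision, and 67 pairs of libraries of 1 group were checked and none was a duplicate.

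A gene was tested where over 2 mice of all 50 reached 1 CPM (16696 of 53700 genes). edgeR 4.0.16 (R 4.3.3) fitted the 6 groups of the series with TMM scaling, so that all 50 mice share the estimate of the spread, and quasi-likelihood tests gave the contrasts, with Benjamini-Hochberg adjustment over all genes. Alternatives included DESeq2 1.42.0, limma 3.58.1 (voom), other filters and scalings, sums per nest number and leaving out each mouse. The code was tested on simulated data. Principal components were compared by exact two-sided permutation of nest means. Transcript lengths came from GENCODE and promoters from RefSeq, where 11284 of 16695 tested symbols matched.

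Members and gene lists were chosen with earlier results of these data known. Genes named by rank have a mean log2 CPM of at least 1 over the 25 mice (prior count 2). They are the 8 with the smallest interaction p in each direction and the 6 with the smallest p among those called for the ELS differences in each direction. Per family they are the 2 with the smallest interaction p and the one with the largest LPS response. Genes the study had listed, and Ripk1, Gas6, Ddit4, Acod1, Tnip3, Trem1 and Ccr7, were added whatever their level. Not all are printed. Other names were chosen after their values were seen.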

Additional observations from a re-analysis of the deposited data

Results flagged for a closer look

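In each group of 4 to 10 mice the highest and lowest mouse were compared with their nearest neighbour by Dixon's ratio. In all 33 results were flagged. The last of them below is a permutation result, and the others came from Dixon's ratio over 152 groups of values, where chance alone picks about 1 group in 20. P200_1.1_CTR_PBS had 25 of the flags. The scores are mean log2 CPM over a family.

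P200_1.1_CTR_PBS lay apart on the first principal component (-219.3) and on the second (185.3). Among immune families its score was 2.843 for NF-kB, 5.034 for Toll-like receptors, 1.385 for interferon-inducible GTPases, 1.856 for STAT and SOCS proteins, 5.93 for MHC class II and 3.691 for complement. Among microglial state and uptake families it was 11.105 for homeostatic genes, 4.069 for disease-associated genes, 3.032 for TAM receptors and opsonins and 2.974 for TNF receptor and RIPK signalling. Among protein turnover and stress families it was 5.125 for ubiquitin-conjugating and deubiquitinating enzymes, 3.512 for E3 ligases, 5.812 for heat shock proteins, 4.142 for NRF2 genes and 7.355 for ribosomal proteins. Among metabolic and nuclear families it was 4.739 for glycolysis, 2.021 for cholesterol genes, 8.883 for lysosomal genes, 0.7035 for DNA replication, 3.243 for TGF-beta receptors, 2.568 for microtubule proteins, 2.914 for histone-modifying enzymes and 1.446 for circadian genes. Only 12854 genes were detected in this mouse, and whether that moved these scores was not tested.

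P200_11.2_ELS_LPS lay apart in its proteasome score (7.214) and in the difference between short and long genes (0.804). P200_4.1_ELS_PBS, which carried much of the glucocorticoid-target difference, lay apart in AP-1 genes (2.065). P200_2.1_ELS_PBS did so in Toll-like receptors (6.034) and P200_20.2_ELS_PBS in DNA replication genes (2.129). P200_5.3_CTR_LPS did so in disease-associated (5.211) and lysosomal genes (8.822).

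The LPS response of nest means on the second component differed between rearing groups by 58.49 (ELS minus CTR, exact permutation p = 0.0159). On the second component recomputed without P200_1.1_CTR_PBS, another axis, it differed by -2.845 (exact permutation p = 0.984).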

How the results depend on the processing

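The interaction called 0 genes with edgeR's quasi-likelihood test, 11 with DESeq2 (6 higher, 5 lower) and 66 with the likelihood-ratio test (33 in each direction), and 0 to 4 when 1 mouse was left out (4 without P200_18.3_CTR_LPS). Pyurf was called by DESeq2 (1.81), and by the likelihood-ratio test Pyurf (1.79), Ifitm3 (2.14), Ddit4 (-3.32) and Ercc6l2 (-1.80) were called. The 26 baseline calls became 153 with DESeq2 and 191 with the likelihood-ratio test, 6 with DESeq2 size factors, 3 over every gene with a count, 2 with filterByExpr or the P200 mice alone, 1 with voom or without P200_1.1_CTR_PBS and P200_11.2_ELS_LPS, and 0 with sums per nest or with the P200 mice alone and no P200_1.1_CTR_PBS. Leaving out 1 mouse gave 1 to 75 (1 to 19 where the count fell, for example 9 without P200_18.1_CTR_PBS and 15 without P200_15.2_CTR_LPS, 75 without P200_15.1_CTR_PBS, 63 without P200_17.2_ELS_PBS and 45 without P200_20.1_ELS_LPS). The difference under LPS called 2 with DESeq2, 10 with the likelihood-ratio test and 0 to 1 with 1 mouse left out. The 11 calls of the averaged difference became 105 and 152 with these tests, 7 with filterByExpr or library size only, 6 with the P200 mice alone and no P200_1.1_CTR_PBS, 4 with the P200 mice alone, 3 without P200_1.1_CTR_PBS and P200_11.2_ELS_LPS, 0 with sums per nest or voom, and 0 to 51 with 1 mouse left out (51 without P200_15.1_CTR_PBS, 28 without P200_17.2_ELS_PBS, 24 without P200_17.3_ELS_LPS and 19 without P200_8.3_CTR_LPS). The 1606 calls of LPS against PBS in CTR mice became 673 with at least 1 CPM in each P200 mouse (8776 genes tested), 1049 with sums per nest and 2493 with no fold threshold or one of 0.1, and the 1313 in ELS mice 688, and 2059 with either lower threshold. With 1 mouse left out these were 1402 to 1621 and 1106 to 1467. On the first component, recomputed in each setting, the response difference reversed to 1.472 under the stricter filter and 11.84 without P200_1.1_CTR_PBS, and the level difference to -1.966 without P200_1.1_CTR_PBS. The interaction of Il1b reversed to -0.02 with nest differences. The cause of these changes was not tested.

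Of the named genes' interactions under the alternatives, 2854 values kept their direction and their side of the threshold. Among family medians 450 values moved by less than the spread between mice and 5 by more: ribosomal proteins 0.2095, nuclear oxidative phosphorylation genes 0.10 and proteasome 0.0842 without P200_1.1_CTR_PBS and P200_11.2_ELS_LPS, glucocorticoid targets -0.1101 over 13 members as a difference of mean log2 CPM with the length trend removed (-0.1034 over these members before its removal), and AP-1 genes -0.27 with the block.

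Among 15 PBS and LPS pairs with a shared nest number the median correlation was 0.038 (range -0.125 to 0.173), and 6 were above 0.1. In 64 pairs with different numbers the median was -0.022. Of 25 mice 8 correlated best with a mouse of their own number. These correlations are low, and whether the nest number pairs the mice was not tested. With the nest number as a replicate block the interaction called 0 genes, LPS against PBS in CTR mice called 1235 and LPS against PBS in ELS mice 1214.

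The typical standard error of the interaction, 0.553, limits what 5 to 7 mice a group can show. The settings without P200_1.1_CTR_PBS and P200_11.2_ELS_LPS together, with the P200 mice alone and no P200_1.1_CTR_PBS, without the length trend and over members with a mean log2 CPM of at least 1 were chosen after seeing the data.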
